A study of Anopheles merus and Anopheles coluzzii with 36 samples.

Results

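In whole larvae of the mosquitoes Anopheles merus and Anopheles coluzzii, 30 of the 10905 genes of the deposited table (0.275%) were higher in An. merus at every salinity tested while staying within bounds on salinity in each species. They were chosen from the values themselves. The group mean in CPM (the reads of a gene scaled to a common library size) had to be higher in An. merus by at least 1.5 log2 units at each of 6 salinities, after adding 0.5 CPM. The mean over the 18 An. merus libraries had to reach 5 CPM. The change from 0 to 50% salinity in each species, and from 0 to 30% in An. coluzzii, had to stay under 1 log2 unit. The differences between the species are therefore given below as descriptions, without a test.

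Each library came from a pool of 35 to 50 whole larvae, so it mixes all larval tissues. In bulk samples of this kind, fewer cells of a type and less RNA per cell cannot be told apart. Larvae of both species, raised in fresh water, were exposed at 18 h after hatching for 6 h to salinities of 0, 10, 20, 30, 40 or 50% of seawater. The 12 groups had 3 pools each, and the labels do not say whether these came from separate cultures, so p-values measure the spread between pools. The labels name no strain for either species.

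Both mosquitoes belong to the Anopheles gambiae complex, a group of closely related African malaria vectors. Anopheles merus breeds in brackish coastal pools and its larvae tolerate salt water, whereas Anopheles coluzzii breeds in fresh water. A mosquito larva in dilute water gains water and loses ions through its body surface, and the Malpighian tubules and rectum adjust the ions in the urine. A larva in salt water faces the opposite gradients. A gene can differ between related species through its regulation, its copy number, its sequence or its tissue of expression, and RNA abundance does not separate these.

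An. merus libraries held 9174563 to 24092192 reads, and those of An. coluzzii 15369828 to 24835904. The library with the fewest reads was An. merus replicate A at 0%. A gene with no read in a library could have up to 3 reads by counting error alone, which equals 0.114 to 0.348 CPM for An. merus libraries and 0.119 to 0.217 CPM for those of An. coluzzii. Such limits cover counting error only. The genes carry AGAP identifiers, and none of the 30 matched the gene table used here, so no gene name, function or position is given. The share of reads that aligned is not known for either species, and for every gene below a difference in alignment and a difference in expression cannot be told apart. CPM values are not divided by gene length, so they compare libraries for a gene and not one gene with another.

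The 30 genes together took 0.184 to 0.268% of the reads in An. merus libraries (highest in replicate A at 0%), with a median of 0.216%. In An. coluzzii they took 0.0241 to 0.0313%, with a median of 0.0267%. All 3 An. merus libraries lay above all 3 An. coluzzii libraries at all 6 salinities for 30 of the 30 genes, a separation that 6.44% of all genes showed. Taken one salinity at a time, 21.2% of all genes showed it at 0%, 25.4% at 10%, 27.7% at 20%, 32.5% at 30%, 35.1% at 40% and 31.8% at 50%. For 28 of the 30 the lowest of the 18 An. merus libraries also exceeded the highest of the 18 An. coluzzii libraries, as for 2.85% of all genes. The rule chose the genes on these contrasts, so nothing is read from these shares.

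**Figure D1:**
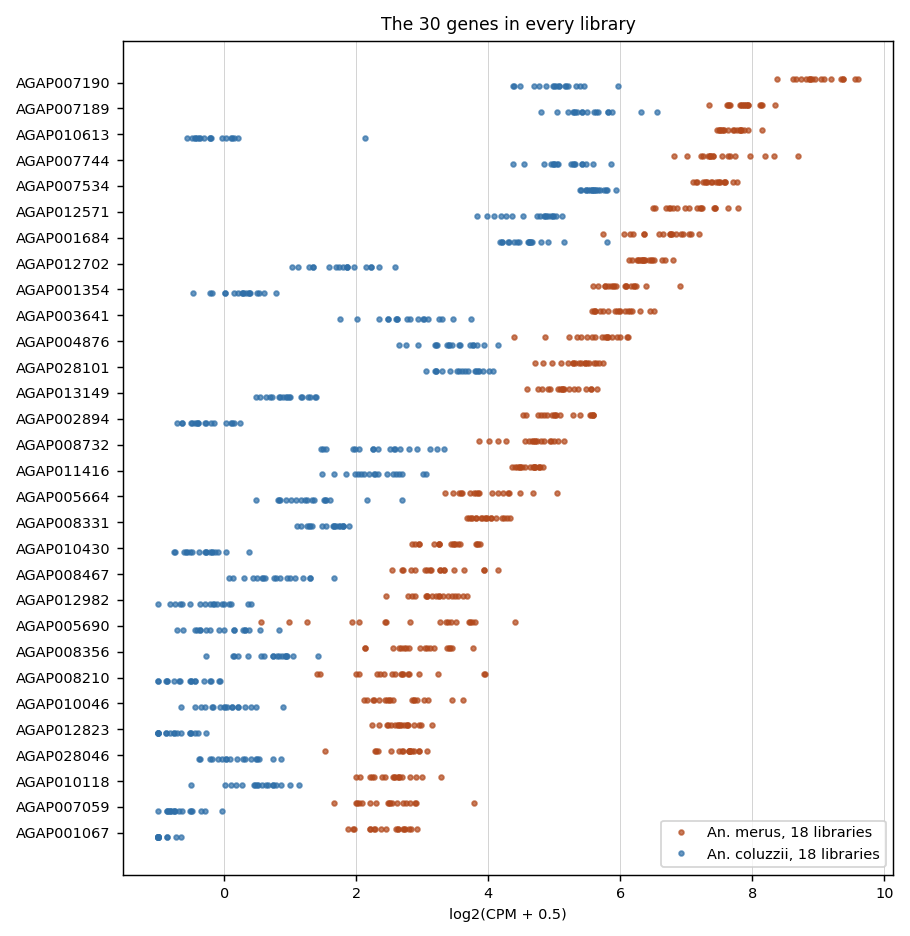
Expression of the 30 genes in all 36 libraries as log2(CPM + 0.5), one row per gene in the order of mean An. merus CPM; each point is a library, orange for An. merus and blue for An. coluzzii. The clouds are apart for 28 genes and touch for AGAP001684 and AGAP005690.

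The ranges of this pair overlapped across salinities and not within one. AGAP001684 measured 52.8 CPM in its lowest An. merus library, replicate B at 0%, and 54.9 CPM in its highest An. coluzzii library, replicate B at 50%. AGAP005690 measured 0.964 CPM in An. merus replicate C at 0% and 1.28 CPM in An. coluzzii replicate C at 40%. Its An. merus values were also the most spread of the 30 in relative terms, up to 20.7 CPM.

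In An. coluzzii 13 of the 30 genes averaged under 1 CPM. AGAP010613 had the largest gap. It ran from 176 to 283 CPM over the An. merus libraries (median 209), and from 0.174 to 3.88 CPM over those of An. coluzzii (median 0.36). The An. coluzzii value of 3.88 CPM, in replicate D at 40%, rested on 83 reads out of 203 in all 18 libraries, and stood apart from the rest.

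AGAP001354 ran from 47.5 to 119 CPM in An. merus (median 63.7) and from 0.218 to 1.22 CPM in An. coluzzii (median 0.715). For AGAP002894 the An. merus libraries ran from 22.6 to 47.6 CPM (median 31.8) and the An. coluzzii libraries from 0.111 to 0.675 CPM (median 0.287). The ratio of the species means was 94.8 for the former gene and 102 for the latter, against 365 for AGAP010613. Reads of all 3 genes were present in every An. coluzzii library, so none of these ratios rests on a group at 0.

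AGAP001067 came closest to absence in An. coluzzii. It had 7 reads in all, none in 14 of the 18 libraries, and none in any library from 20 to 50%. In An. merus it had 1458 reads and ran from 3.18 to 7.04 CPM (median 5.29). No other gene of the 30 lacked reads in more than 5 An. coluzzii libraries, and none lacked reads in an An. merus library.

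AGAP012823 had no read in 5 An. coluzzii libraries and at most 0.326 CPM there, against 4.19 to 8.35 CPM (median 5.87) in An. merus. AGAP007059 had no read in 1 library of An. coluzzii and at most 0.471 CPM, against 2.67 to 13.2 CPM (median 5.18). AGAP012982 also had no read in 1, and at most 0.82 CPM, against 4.99 to 12.2 CPM (median 8.92). The highest An. coluzzii library of each of these genes stood well below the lowest An. merus library.

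AGAP008210, AGAP010430, AGAP010046, AGAP028046, AGAP010118 and AGAP005690 make up the 13. Their An. coluzzii means were 0.194, 0.311, 0.555, 0.663, 0.966 and 0.521 CPM. Their An. merus means were 6.27, 10.2, 6.21, 5.95, 5.51 and 8.33 CPM. Apart from AGAP010430 these lay between 5 and 10 CPM in An. merus, near the abundance the rule asked for, as 11 of the 30 genes did.

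A further 9 genes averaged 1 to 10 CPM in An. coluzzii. AGAP012702 ran from 69.8 to 111 CPM in An. merus (median 81.1) and from 1.55 to 5.48 CPM in An. coluzzii (median 3.05). AGAP013149 ran from 23.6 to 49.7 CPM (median 34.4) against 0.895 to 2.11 CPM (median 1.43), and AGAP003641 from 47.2 to 90.4 CPM (median 61.9) against 2.86 to 12.8 CPM (median 6.4). These 3 had ratios of species means of 27.5, 24.3 and 9.23. The other 6, AGAP008732, AGAP011416, AGAP005664, AGAP008331, AGAP008467 and AGAP008356, had ratios of 4.92, 5.21, 7.56, 6.21, 7.29 and 6.68.

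The remaining 8 genes averaged at least 10 CPM in An. coluzzii and so were plainly measured in both species. For AGAP007190 the An. merus libraries ran from 331 to 773 CPM (median 487), and those of An. coluzzii from 20.2 to 62.2 CPM (median 32.5). AGAP007189 ran from 162 to 323 CPM (median 234) against 27.4 to 93.6 CPM (median 43.3), and AGAP007744 from 112 to 412 CPM (median 168) against 20.2 to 57.7 CPM (median 35.1). AGAP007190 kept the wider gap of the 3, with a ratio of means of 15.9 against 4.86 for AGAP007189 and 5.56 for AGAP007744.

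AGAP007534 had the tightest values of the 8, from 137 to 216 CPM in An. merus (median 170) and from 41.5 to 60.9 CPM in An. coluzzii (median 47.7), a ratio of means of 3.52. AGAP012571 ran from 89.2 to 219 CPM (median 136) against 13.7 to 34.3 CPM (median 27.6). AGAP001684 ran up to 146 CPM (median 107) in An. merus and down to 17.6 CPM (median 23.9) in An. coluzzii. The last of the 8, AGAP004876 and AGAP028101, had means of 49.9 and 40.7 CPM in An. merus against 10.7 and 11.8 CPM in An. coluzzii.

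Within groups, the SD of log2 values had a median over the 30 genes of 0.26 in An. merus and 0.29 in An. coluzzii. Over all genes of at least 5 CPM in An. merus it was 0.18 and 0.15. The spread among the 3 pools was thus larger for these genes than for the bulk in both species. The sets were not matched on abundance. Many of the 30 genes have few reads in An. coluzzii, and 11 averaged 5 to 10 CPM in An. merus. The median was highest at 0% in An. merus (0.28) and at 50% in An. coluzzii (0.29).

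The gap between the species kept its sign at every salinity by construction, but its size varied. The median over the 30 genes was 3.21 log2 units at 0%, 2.80 at 10%, 2.73 at 20%, 2.72 at 30%, 2.51 at 40% and 2.74 at 50%. Over all genes the median lay between -0.101 and 0.002. The gap was widest at 0% for 13 of the 30 genes and narrowest at 40% for 10 of them. Scaling by library totals in place of the deposited scaling moved the median of all genes by -0.06, -0.04, 0.03, 0.12, 0.25 and 0.09 from 0 to 50%. The medians of the 30 genes, computed under that scaling after seeing the data, were then 3.17, 2.79, 2.77, 2.82, 2.76 and 2.78. The gap was widest at 0% for 10 genes under that scaling and narrowest at 40% for 7, so the lower median at 40% was not kept apart from those at 10 to 50%.

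AGAP012823 was the steadiest of the wide gaps, from 3.31 to 3.60 log2 units, and AGAP002894 ran from 5.18 to 5.66. The An. coluzzii group means of AGAP012823 were 0.0654 to 0.134 CPM, below the added 0.5 CPM. Its gap therefore mostly reflects the An. merus level over that added value. The An. coluzzii group means of AGAP002894 were 0.198 to 0.599 CPM, and that of AGAP010613 at 0% was 0.263 CPM. The size and steadiness of their gaps thus also depend on the added value. The same holds for every other gene with An. coluzzii group means under 0.5 CPM. AGAP010613 ran from 8.19 at 0% to 6.57 at 40%, where the An. coluzzii replicate D stood apart, and AGAP008467 from 3.30 at 0% to 1.64 at 40%. For AGAP005664 the gap was 3.57 at 0% and 1.74 at 40%, and at each a single library stood apart. These were An. merus replicate A at 0% (32.5 CPM against 19.1 and 19.4) and An. coluzzii replicate B at 40% (5.99 CPM against 2.36 and 2.39). AGAP004876 had the reverse order, with 1.55 at 0% and 2.56 at 30%. For 12 of the 30 genes the widest and narrowest gaps lay at least 1 log2 unit apart.

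**Figure D2:**
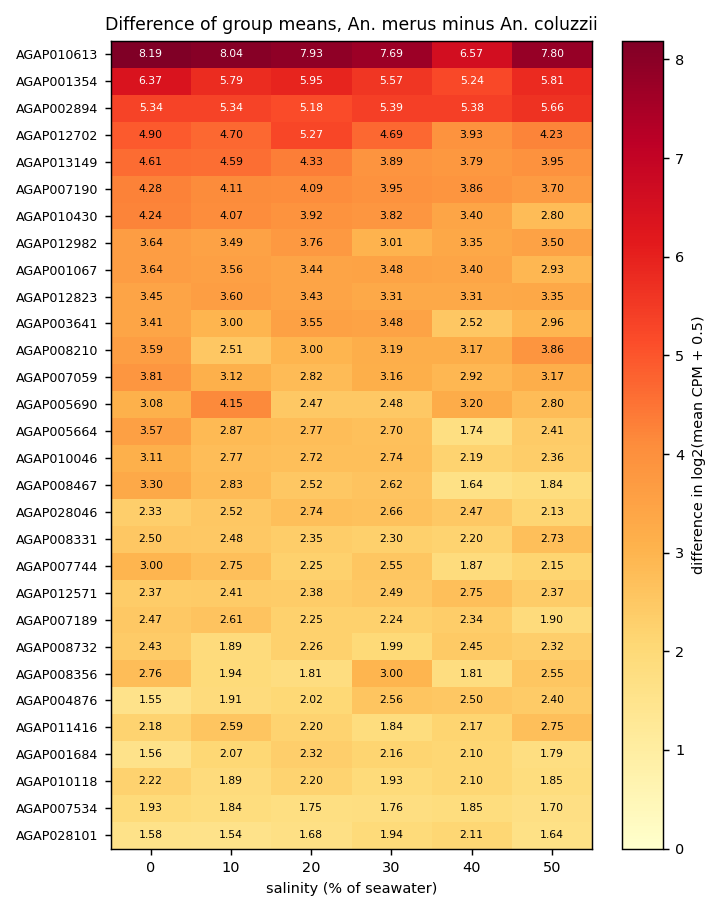
Difference of group means between the species, An. merus minus An. coluzzii, in log2(mean CPM + 0.5), for the 30 genes (rows, by median) at 6 salinities in % of seawater (columns); darker colour is a wider gap. The values run from 1.54 for AGAP028101 at 10% to 8.19 for AGAP010613 at 0%. Where the An. coluzzii mean is under the added 0.5 CPM, the gap depends on that value.

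The threshold of 1.5 log2 units cut through a continuous range. Just inside it, the narrowest gap was 1.545 for AGAP028101, 1.553 for AGAP004876, 1.555 for AGAP001684, 1.645 for AGAP008467 and 1.699 for AGAP007534. Just outside it, among genes that met every other condition, the narrowest gap was 1.492 for AGAP011564, 1.461 for AGAP013280, 1.418 for AGAP002870, 1.368 for AGAP008671 and 1.347 for AGAP010362. In all, 63 genes met the condition on the gap at all 6 salinities, 51 of them reached 5 CPM in An. merus, and the bounds on salinity left out 21 more. The mirrored rule, for genes higher in An. coluzzii, found 57 genes.

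One pair among the 30, AGAP007189 and AGAP007190, had consecutive identifier numbers. Of the genes numbered around this pair in the table, chosen after their values were seen, some differed between the species, in both directions. AGAP007188, which did not meet the rule, averaged 281 CPM in An. merus against 139 CPM in An. coluzzii, a gap of 0.79 to 1.30 log2 units. AGAP007187 averaged 1.1 CPM in An. merus against 675 CPM in An. coluzzii, a gap of -9.22 to -8.10. AGAP007192 was also lower in An. merus, at 0.713 against 11.4 CPM, and AGAP007193 had a gap of -2.13 to -0.14. The gaps of AGAP007185 (-0.5 to 0.03) and AGAP007186 (-0.75 to 0.11) were small and fell on both sides of 0. Whether reads were shared between similar copies of these genes was not tested, so each is uncertain as a separate measurement.

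**Figure D3:**
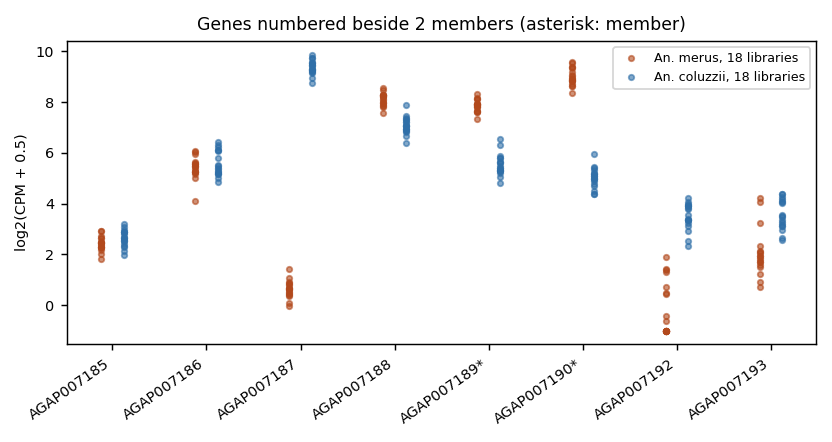
Values of the genes with identifiers from AGAP007185 to AGAP007193 that the table holds, as log2(CPM + 0.5), 18 points per species and gene, one per library. AGAP007187 is far higher in An. coluzzii (425 to 938 CPM against 0.466 to 2.2 CPM), and the pair marked with an asterisk is higher in An. merus.

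The rule placed no bound on changes at 20, 30 and 40% in An. merus or at 20 and 40% in An. coluzzii, so these were tested against 0% with limma over all genes. The tests are not free of the rule. The gap of 1.5 log2 units at each salinity limits how far a gene could fall in An. merus or rise in An. coluzzii, the 0% libraries enter both the gap and the bounds, and the bounds at 50%, and at 30% in An. coluzzii, limit what the genes could do in between. The adjusted p-values below therefore describe single genes and support nothing about the 30 as a set. Comparisons within a species share their 0% libraries.

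In An. merus AGAP001684 and AGAP004876 rose at each of the 3 salinities tested, and AGAP007744, AGAP008467 and AGAP007059 fell at each. At 20% 6 of the 30 passed, where 11.8% of all genes did: 2 rose and 4 fell, against 4.71% and 7.05% of all genes. At 30% 6 passed, where 19.4% of all genes did: 2 rose and 4 fell, against 8.69% and 10.7%. At 40% 14 passed, where 39.3% of all genes did: 4 rose and 10 fell, against 17.8% and 21.5%. Falls outnumbered rises among all genes too, and the rule limits these shares, so nothing is read from them. The median change of the 30 genes was -0.16, -0.23 and -0.31 log2 units, against -0.03, -0.01 and -0.02 for all genes. Without replicate A of the 0% group the medians at 20 and 30% were -0.04 and -0.12, and 14 of the 30 genes were then higher at 20% in place of 6. The median at 20% was -0.08 without replicate B of the 20% group, -0.29 without its replicate C and -0.28 without replicate B of the 0% group. At 20%, leaving out replicate A of the 0% group or replicate B of the 20% group left 2 genes passing. At 40%, leaving out replicate A of the 0% group left 9, and replicate A of the 40% group 8.

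AGAP004876 measured 41.8, 28.4 and 20.3 CPM in the An. merus libraries at 0%, and 69, 61.5 and 53.9 CPM at 30%, so these groups did not overlap. Its log2 change was 1.02 ± 0.24 at 20%, 1.07 ± 0.24 at 30% and 0.80 ± 0.24 at 40% (SE; limma adjusted p = 0.0064, 0.0021 and 0.0084). The change at 40% lost its call without replicate C at 0%, the lowest library of that group. In An. coluzzii the gene measured 9.95 ± 3.48 CPM at 0% and 8.64 ± 1.47 CPM at 40% (SD, n = 3), well within the spread of its 0% libraries. It averaged 13.3 CPM at 10%, 14.3 CPM at 20% and 9.99 CPM at 30% there. The change at 20% had the same direction as in An. merus and did not pass (0.55 ± 0.24 SE; limma adjusted p = 0.114).

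AGAP001684 measured 72.4, 52.8 and 65.8 CPM at 0% and 120, 146 and 123 CPM at 40% in An. merus. The 40% libraries all lay above those at 0%. Its log2 change was 0.57 ± 0.19 at 20%, 0.80 ± 0.19 at 30% and 1.02 ± 0.19 at 40% (SE; limma adjusted p = 0.047, 0.0038 and 9.9e-05). Group means were 84.1 CPM at 10%, 94.9 at 20%, 110 at 30% and 124 at 50%. The change at 20% lost its call with edgeR (not with DESeq2), and in 5 of the 6 fits that each left out a library, all but the one without replicate C at 0%.

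Among genes that fell, AGAP007744 measured 320, 249 and 412 CPM at 0% in An. merus, 112, 149 and 163 CPM at 30% and 164, 129 and 168 CPM at 40%. Every library at 30 and 40% lay below every library at 0%. The log2 change was -0.84 ± 0.21 at 20%, -1.19 ± 0.21 at 30% and -1.07 ± 0.21 at 40% (SE; limma adjusted p = 0.013, 0.00027 and 0.00026). The call at 20% was lost without replicate A at 0% or replicate B at 20%. At 50% the gene stood at 184 ± 27.8 CPM (SD, n = 3), inside the bound the rule set.

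AGAP008467 measured 17.3, 14.8 and 14.7 CPM at 0% and 6.92, 6.02 and 5.98 CPM at 40%, with no overlap. It fell by 0.96 ± 0.21 log2 units at 20%, 0.88 ± 0.21 at 30% and 1.24 ± 0.21 at 40% (SE; limma adjusted p = 0.0049, 0.0047 and 4.5e-05). The call at 20% was lost without replicate B at 20%. AGAP007059 measured 13.2, 6.92 and 6.99 CPM at 0% and 2.67, 5.22 and 3.63 CPM at 20%. It fell by 1.12 ± 0.25 log2 units at 20%, 0.96 ± 0.25 at 30% and 0.78 ± 0.25 at 40% (SE; limma adjusted p = 0.0045, 0.007 and 0.014), and all 3 calls were lost without replicate A at 0%, its highest library, and with a pseudocount of 0.1. The call at 40% was also lost without replicate A at 40%.

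**Figure D4:**
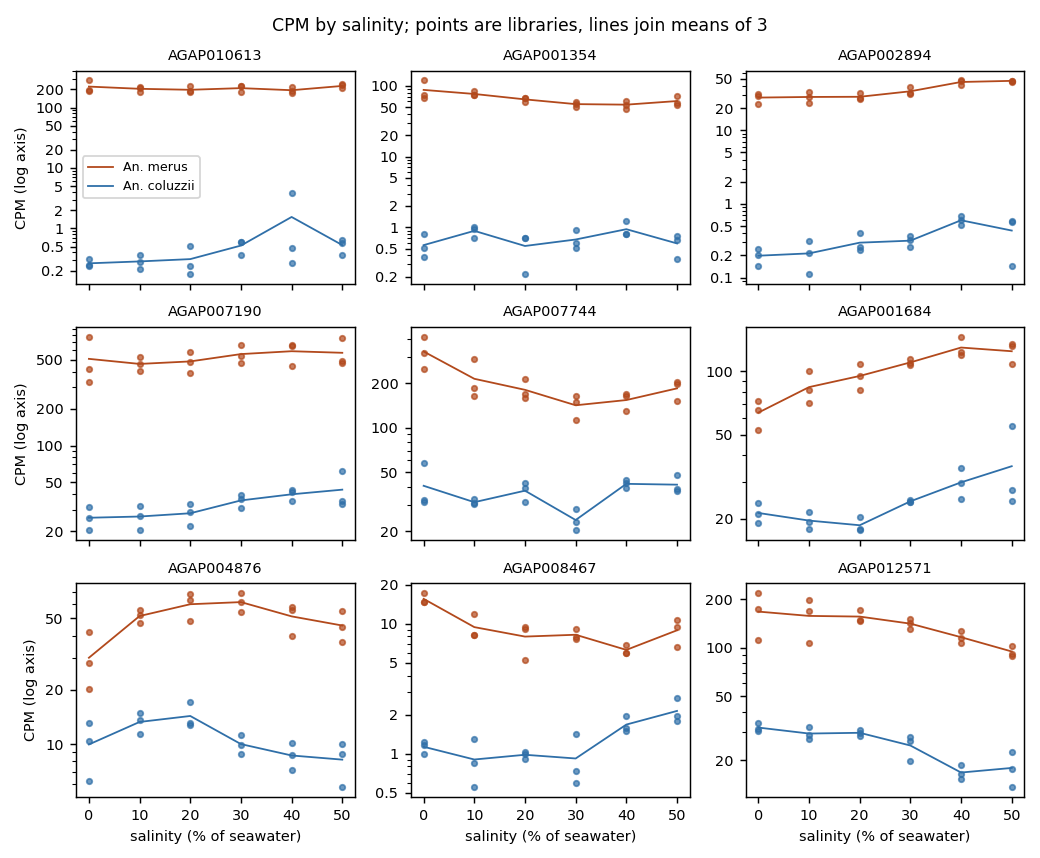
CPM on a log axis against salinity in % of seawater for 9 of the 30 genes; points are single libraries and lines join the means of 3. In An. merus AGAP001684 climbs from 63.7 CPM at 0% to 129 CPM at 40% and AGAP007744 drops from 327 to 154 CPM, while the An. coluzzii points stay below at each salinity.

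At 40% in An. merus the largest rise was that of AGAP005690, which measured 6.5, 9.97 and 0.964 CPM at 0% and 10.8, 12.7 and 13 CPM at 40% (log2 change 1.41 ± 0.56 SE; limma adjusted p = 0.045). Its 0% libraries were far apart, and the call was lost with DESeq2, edgeR, a pseudocount of 0.1 or the species fitted alone, and without replicate C at 0% or replicate A, B or C at 40%. AGAP002894 rose from 31.4, 22.6 and 29.2 CPM to 46.7, 47.6 and 41.2 CPM, without overlap (0.70 ± 0.16 SE; limma adjusted p = 0.0011). AGAP008356 fell from 9.86, 10.2 and 13.1 CPM to 3.86, 3.89 and 8.21 CPM, also without overlap (-1.06 ± 0.24 SE; limma adjusted p = 0.00098). The calls of AGAP002894 and AGAP008356 were kept in every alternative fit and in each fit without a library.

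The other 6 genes that passed at 40% in An. merus all fell. Their log2 changes were those of AGAP001067 (-0.43), AGAP012571 (-0.47), AGAP013149 (-0.60), AGAP010430 (-0.61), AGAP012982 (-0.61) and AGAP001354 (-0.65). The calls of AGAP012571 and AGAP012982 were each lost in 5 of the 6 fits without a library. AGAP012571 also lost its call with library totals and with the species fitted alone, AGAP012982 with DESeq2, edgeR, library totals and quantile normalization, and AGAP001067 with DESeq2 and edgeR. AGAP001354 lost its call without replicate A at 0%, its highest library at 119 CPM, or replicate C at 40%, AGAP013149 without replicate A at 0% or at 40%, and AGAP001067 without replicate A or B at 40%. With a pseudocount of 0.1, AGAP013149 alone of these 6 kept its call. At 20 and 30% the remaining genes that passed were AGAP008356 (-0.75 at 20%) and AGAP001354 (-0.62 at 30%), and each lost its call in 4 of the 6 fits without a library. AGAP008356 at 20% also lost it in 5 of 8 other fits (DESeq2, edgeR, library totals, a pseudocount of 0.1 and the species fitted alone), and AGAP001354 at 30% in 1 of 9, with a pseudocount of 0.1.

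In An. coluzzii 8 of the 30 genes passed at 40%, where 65.6% of all genes did. Of the 8, 6 rose and 2 fell, against 30.6% and 35% of all genes. The bounds at 30 and 50% in An. coluzzii kept genes with large responses out of the set, so nothing is read from these shares. The median change was 0.16 log2 units against -0.04 for all genes. With library totals as the scaling, 4 rose and 3 fell, and that scaling moved the median of all genes by -0.28. At 20% 1 gene passed by limma, where 15.3% of all genes did: it rose, and 0 fell, against 7.51% and 7.83% of all genes. With library totals 0 rose and 1, AGAP012702, fell. At that salinity 4 of the 30 genes had an unadjusted p under 0.05 by limma, edgeR called 1 rise and 0 falls, and DESeq2 called 0 of either.

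AGAP012571 fell in An. coluzzii from 34.3, 31.1 and 30.4 CPM at 0% to 15.2, 18.8 and 16.4 CPM at 40%, without overlap (log2 change -0.91 ± 0.19 SE; limma adjusted p = 0.00016). AGAP028101 fell from 14.6, 15.5 and 12 CPM to 8.76, 8.64 and 10.2 CPM, also without overlap (-0.58 ± 0.13 SE; limma adjusted p = 0.00045). Both calls were kept in every alternative fit and in each fit without a library.

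The riser with the smallest adjusted p was AGAP012702, from 3.11, 2.02 and 2.51 CPM to 4.18, 4.19 and 5.48 CPM (0.75 ± 0.16 SE; limma adjusted p = 0.00013), a call kept throughout. AGAP005664 measured 2.42, 0.895 and 1.28 CPM at 0% and 5.99, 2.36 and 2.39 CPM at 40% (0.96 ± 0.33 SE; limma adjusted p = 0.012), so the groups overlapped, and the call was lost without replicate B at 0% or at 40%. AGAP010613 measured 0.247, 0.235 and 0.307 CPM at 0% and 0.269, 0.473 and 3.88 CPM at 40%, overlapping as well (0.96 ± 0.33 SE; limma adjusted p = 0.012). Its call was lost without replicate D at 40%, the library of 83 reads, and with the species fitted alone.

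AGAP002894 rose in An. coluzzii too, from 0.247, 0.141 and 0.205 CPM to 0.606, 0.675 and 0.515 CPM, on 12 reads at 0% and 30 at 40% (0.66 ± 0.16 SE; limma adjusted p = 0.00089). Its call was lost with a pseudocount of 2. AGAP001684 changed by 0.46 ± 0.19 and AGAP007190 by 0.64 ± 0.26 log2 units (SE; limma adjusted p = 0.033 and 0.031), and each lost its call in 4 of the 6 fits without a library and with library totals as the scaling. The call of AGAP001684 was also lost with the species fitted alone. At 20% the riser was AGAP008331, from 1.88, 2.4 and 1.74 CPM to 2.97, 2.96 and 2.72 CPM (0.44 ± 0.15 SE; limma adjusted p = 0.047). It kept the call in 1 of the 6 fits without a library, the one without replicate B at 0%. The count at 20% was 3 without that same library and 0 without An. coluzzii replicate A or D at 0%, or replicate A or C at 20%.

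At 40% AGAP001684 and AGAP002894 passed as rises in both species, and AGAP012571 as a fall in both. Not all of these calls were stable. For AGAP012571 the An. merus groups overlapped, with 219, 111 and 173 CPM at 0% and 107, 126 and 116 CPM at 40% (limma adjusted p = 0.0498). That call was lost in 5 of the 6 fits without a library, and that of AGAP001684 in An. coluzzii in 4 of 6. AGAP007744, AGAP008467 and AGAP008356 passed the test in An. merus and not in An. coluzzii, where their log2 changes were 0.10 ± 0.21, 0.41 ± 0.21 and -0.04 ± 0.24 (SE; limma adjusted p = 0.69, 0.091 and 0.89). AGAP012702 and AGAP028101 passed in An. coluzzii and not in An. merus, with -0.21 ± 0.16 and -0.05 ± 0.13 (SE; limma adjusted p = 0.29 and 0.80). Differences in response between the species were not tested, because they are made of the contrasts that chose the genes.

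**Figure D5:**
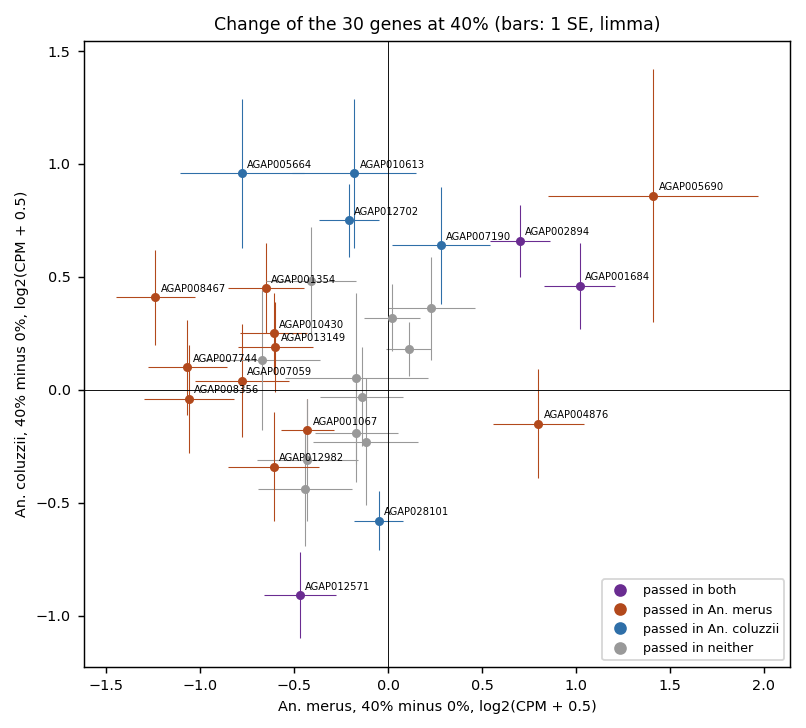
Change from 0 to 40% salinity on the log2(CPM + 0.5) scale in An. merus (x axis) and An. coluzzii (y axis) for the 30 genes, with bars of 1 SE from limma; colour gives the species in which the test was passed. AGAP008467 lies lowest for An. merus at -1.24 and AGAP012571 lowest for An. coluzzii at -0.91.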

How the data were processed

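Gene expression was measured by RNA sequencing of poly(A) RNA in 36 libraries, 18 per species, made with a TruSeq kit per the labels' protocols. The submitters' processing notes name Trimmomatic, TopHat2, Bowtie2, edgeR and HTSeq; no version, build or annotation is given in the sources used here. The values that the authors deposited are a normalized signal per gene and library: TMM-scaled CPM after filtering and removal of rRNA, as the file's name states. Each value was a whole multiple of 1 read within 0.001 (100% of values), which gave the reads per library. For replicate C of An. coluzzii at 50% the labels list 5 lane parts; the column name carries the letter of 1, and which parts it holds is not given. No pair of replicates was identical.

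The genes, lists and tests were chosen with earlier results of these data known. Of 16199 genes in the An. merus gene table used here, 0 matched the identifiers, so lists by gene name and order along the genome could not be applied. Values were tested as log2(CPM + 0.5) in limma 3.58.1 (R 4.3.3) with 12 group means over all 36 libraries, a mean trend, two-sided, and Benjamini-Hochberg adjustment over 10905 genes at a threshold of 0.05. Folds on this scale understate changes of low genes. Tests were unpaired. Deviations of same-lettered libraries correlated at 0.22, 0.29 and 0.32 between An. merus at 0 and 30%, and not in all pairs of the other comparisons. Alternatives were edgeR 4.0.16 and DESeq2 1.42.0 on the recovered reads and those listed in the closing section. On those reads edgeR called 1006, 1950 and 4092 genes in An. merus at 20, 30 and 40%, and 1834 and 7266 in An. coluzzii at 20 and 40%. The procedure was tested on simulated data with the same dispersion for every gene, a simpler setting than these data. That test checks the steps and does not measure error rates here. Full values are given for the genes with the highest An. merus mean, the largest narrowest gap, the nearest to the threshold and the largest tested changes; the other members are given in brief.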

Additional observations from a re-analysis of the deposited data

Results flagged for a closer look

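For AGAP001354 and AGAP008467 all 3 libraries at 40% lay on opposite sides of the 0% libraries in the species, lower in An. merus and higher in An. coluzzii. AGAP001354 measured 119, 75.1 and 67.6 CPM at 0% and 54, 60.7 and 47.5 CPM at 40% in An. merus. In An. coluzzii it measured 0.791, 0.377 and 0.512 CPM at 0% and 0.808, 1.22 and 0.796 CPM at 40%, on 34 and 47 reads, a change that did not pass (0.45 log2 units; limma adjusted p = 0.052). The An. coluzzii groups of AGAP001354 are separated by 0.791 against 0.796 CPM, and with library totals they overlapped, with 0.412 to 0.887 CPM at 0% and 0.697 to 1.06 CPM at 40%. AGAP008467 measured 0.989, 1.18 and 1.23 CPM at 0% and 1.95, 1.49 and 1.59 CPM at 40% in An. coluzzii, on 69 and 85 reads. For this gene the groups stayed apart with library totals, by 1.29 against 1.3 CPM in An. coluzzii, and the change there did not pass either (0.41 log2 units; limma adjusted p = 0.091). The comparison with library totals was chosen after seeing the data. The response in An. merus was lower than that in An. coluzzii by a log2 difference of -1.10 for AGAP001354 and -1.65 for AGAP008467. These differences were not tested, because they are made of the contrasts between the species at 0 and 40% that also chose the genes. Both genes were picked out for showing opposite changes. The share of all genes that show such changes is not given, so nothing is read from the pattern beyond these values.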

How the results depend on the processing

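The number of genes that met the rule was 57 with a gap of 1 log2 unit, 18 with 2 log2 units and 19 where An. merus had to average 10 CPM, against 30. It was 20 with a pseudocount of 2 (18 of the 30 kept), 24 with group medians (24 kept) and 27 with library totals (24 kept). Leaving out each of the 36 libraries gave 27 to 32, and 18 of the 30 genes met the rule in every such fit. Of the 35 changes called among the 30 genes, 13 were kept in every alternative and left-out library, and no change turned its direction. Counts of changed genes over fits without a library ran from 2 to 6 at 20%, 4 to 7 at 30% and 8 to 14 at 40% in An. merus, and from 0 to 3 at 20% and 6 to 9 at 40% in An. coluzzii. At 40% in An. merus the count of 14 became 7 with a pseudocount of 0.1. It was 9 among the 20 genes with a mean of at least 5 CPM over all libraries, where fewer genes were tested. No call among these 20 was lost, and the other called genes lay below that mean. At 20% in An. coluzzii the count of 1 became 3 with a pseudocount of 0.1, 0 with a pseudocount of 2 (4 at an unadjusted p under 0.05) and 0 with DESeq2 (6 at an unadjusted p under 0.05). The cause of the differences with other pseudocounts and with DESeq2 was not tested. With the replicate letter as a replicate block the counts were 6, 6 and 16 at 20, 30 and 40% in An. merus and 1 and 10 at 20 and 40% in An. coluzzii, and no call was lost. Depth limits what can be said of genes under 1 CPM in An. coluzzii, which rest on 7 to 341 reads over 18 libraries.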

Other observations

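After group means were removed, the 435 pairs of the 30 genes had a median correlation of 0.12 over the 36 libraries, from -0.47 to 0.66. AGAP007189 and AGAP007190, the pair with consecutive identifiers, stood at 0.60, as did AGAP007189 with AGAP012571 and AGAP007190 with AGAP028101, and 4 pairs stood higher, so the value is not particular to that pair. The points share libraries, depth and scaling, so these values are descriptions.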
